A study of Mus musculus with 6 samples.

Results

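Prox1, Maf, Mafg, Mafk, Sox1 and Hsf4 encode transcription factors of the lens fiber cell. Their transcripts were measured with Affymetrix arrays in whole lenses of Balb/c mice aged 2 days, on 3 arrays of transgenic and 3 arrays of wild-type lenses. The labels do not name the transgene, its promoter or the cells in which it is active, and no other allele or agent is named for either genotype. For each genotype 12 lenses were used, and whether each array stands for its own animals is not stated, so a p-value here reflects the spread among these arrays and that spread may be technical. Every probe set annotated to 1 of the 6 genes and to no other gene was taken, which gave 15 of the 45037 probe sets tested. Prox1 had 3 of them, Maf 6, Mafg 2, Sox1 2, and Mafk and Hsf4 1 each. The transgenic arrays are called T1 to T3 and the wild-type arrays W1 to W3, by replicate number. Values are quantile-normalized log2 signals, so a difference of 1 is a 2-fold difference, and the mean of each of the 15 probe sets lay at or above the median of all probe sets, 5.34.

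Lens fiber cells arise when cells at the equator of the lens epithelium leave the cell cycle, elongate, fill with crystallins and later lose their nuclei. The homeodomain factor Prox1 and the large Maf protein, a basic leucine zipper factor that binds crystallin promoters, are both required for fiber elongation, and the HMG box factor Sox1 is required for gamma crystallin expression. The small Maf proteins Mafg and Mafk have no activation domain of their own and act in pairs with CNC and Bach proteins, while Hsf4 is the heat shock factor of the postnatal lens, whose loss causes cataract.

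Foxe3, a forkhead gene of the lens epithelium, stood at 13.33, 13.42 and 13.39 in T1 to T3 and at 8.54, 8.86 and 8.82 in W1 to W3, so the genotypes were far apart on every array for this gene. Of 9 lens-defining transcripts 2 were called lower and 0 higher, and the sum of their log2 values was 115.6 to 116.6 in transgenic and 119.2 to 120.0 in wild-type lenses. The beaded filament gene Bfsp1 and Birc7 were the ones called, with differences of -1.66 and -1.61, while Cryaa had means of 14.54 and 14.51 and Mip had means of 13.35 and 13.31. Cryaa, Crybb1 and Cryba1 are among the 9 and hold top ranks. Quantile normalization gives the same value to the same rank, so a difference in these 3 could hardly show. Of 11 lens epithelium markers Foxe3 and Fgfr2 were called higher and 0 lower, and 9 of the 11 were higher on average. The list median was 0.15, where all genes had a median of 0.011 and an upper quartile of 0.15. The 2 with a lower mean were Dkk3, at -0.31 without overlap (limma adjusted p = 0.0902), and Pax6, at -0.22. The labels do not name the transgene, so whether Foxe3 serves as an epithelium marker here cannot be told. The per-array score of these markers, their median deviation from their own means, was 0.16, 0.066 and 0.072 in T1 to T3 and -0.015, -0.12 and -0.064 in W1 to W3, so it did not overlap between genotypes. Over all genes represented by 1 probe set, 4.41% were called, 2.56% lower and 1.85% higher, and 28.8% had groups that did not overlap. The part of any difference in the share of epithelial RNA in the results below was not tested. The sum of the log2 values of 10 skin and cornea markers ran from 55.3 to 92.6 in transgenic lenses, highest in T3, and from 55.9 to 60.4 in wild-type lenses. That of 10 skeletal muscle markers ran from 50.7 to 93.4, again highest in T3, and from 52.2 to 57.6. None of these 20 markers passed in limma (1 had an unadjusted p under 0.05). W1 had the highest upper quartile of the deposited arrays, 7.21 against 7.09 to 7.12 in the other arrays. Results that lost or gained a call without T3 or W1 are given without them too. Of the lens-defining transcripts 3 were called without W1 and 2 without T3, all lower. Of the lens epithelium markers 1 was called without T3 and 2 without W1, all higher. Fgfr2 was not called when any 1 array was left out.

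Prox1 and Maf were lower in transgenic lenses on some of their probe sets, and Mafg, Mafk, Sox1 and Hsf4 had none past the test. One of 3 Prox1 probe sets and 3 of 6 Maf probe sets fell, each by close to 1 log2 unit. In all, 4 of the 15 member probe sets were called lower and 0 higher (limma, adjusted p under 0.05 over all probe sets), where 3.68% of all probe sets were called, 2.21% lower and 1.47% higher. At an unadjusted p under 0.05 Mafk alone was higher. An ordinary linear model test without moderation called none of the 15, with adjusted p-values of 0.110 to 0.137 for these 4. The median difference of the 15 was -0.24, against 0.0039 over all probe sets. The groups did not overlap in 6 of the 15, against 27.0% of all probe sets. In a whole lens, fewer cells of a type and less RNA per cell cannot be told apart. With W1 left out 6 of the 15 were called lower, with W2 left out 2, with T2 left out 3, and with T3 left out the same number as with all arrays, 4.

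**Figure D1:**
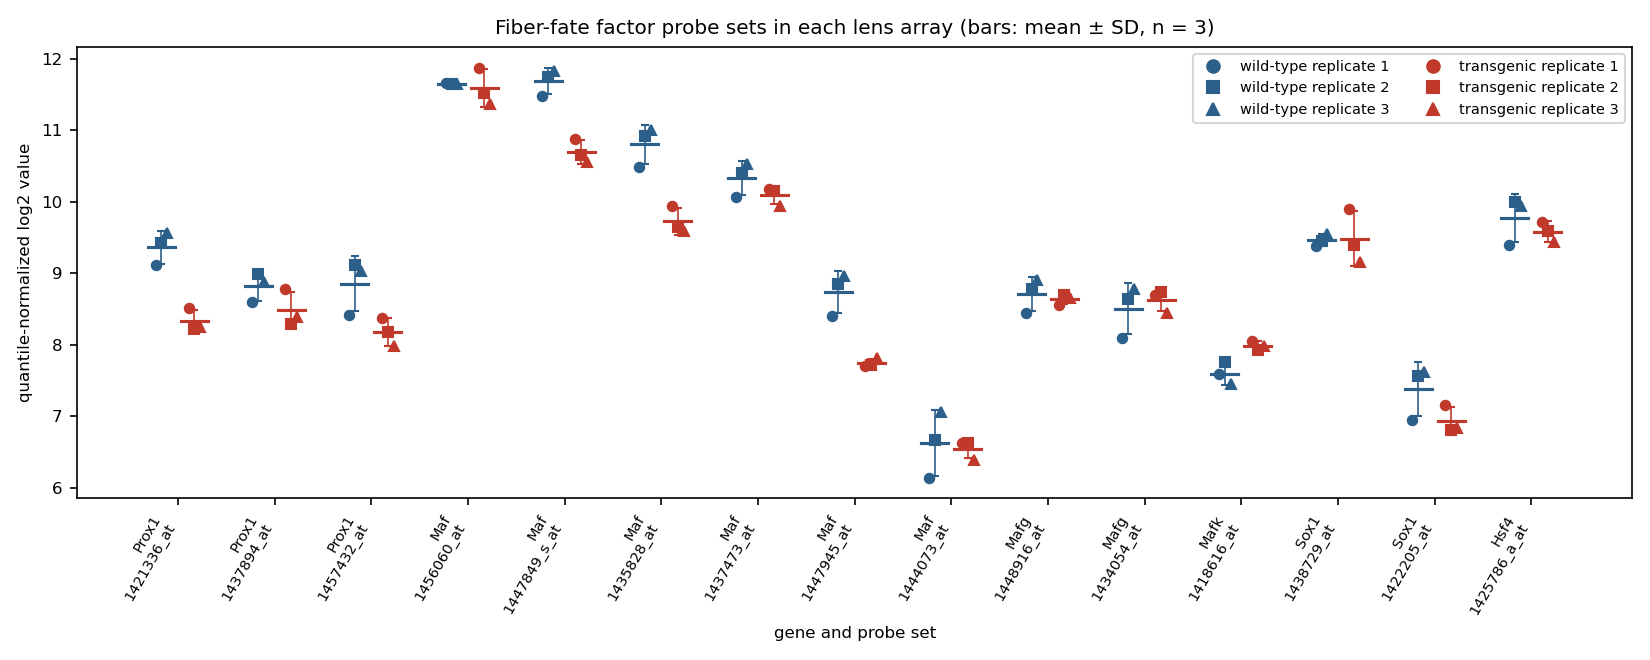
Quantile-normalized log2 value of each of the 15 probe sets (x axis) on every array, with wild-type in blue, transgenic in red, a marker shape per replicate and bars for mean ± SD (n = 3). The genotypes separate for Prox1 1421336_at and 1457432_at, for Maf 1447849_s_at, 1435828_at and 1447945_at and for Mafk 1418616_at, and they overlap for the others.

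Prox1 is needed for fiber cells to elongate and to leave the cell cycle. On its probe set 1421336_at it stood at 8.52, 8.22 and 8.25 in T1 to T3 and at 9.11, 9.42 and 9.56 in W1 to W3. All transgenic arrays lay below all wild-type arrays. The mean was 8.33 ± 0.16 in transgenic and 9.37 ± 0.23 in wild-type lenses (SD, n = 3 each), a fall of 2.05-fold with a log2 difference of -1.04 ± 0.14 (SE; limma adjusted p = 0.00665). The call held whichever single array was left out, with a highest adjusted p of 0.0418, and was lost in the ordinary test without moderation (adjusted p = 0.120).

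The other Prox1 probe sets were also lower on average, by less. On 1457432_at Prox1 stood at 8.37, 8.18 and 7.98 in T1 to T3 and at 8.41, 9.12 and 9.03 in W1 to W3. The groups did not overlap, but T1 and W1 lay close together. The difference was -0.68 ± 0.19 (SE), with a limma adjusted p = 0.0890, and it passed when W1 was left out, at -0.90 with an adjusted p = 0.0175. On the values as deposited it also passed (-0.75, adjusted p = 0.0480). On 1437894_at the arrays read 8.78, 8.29 and 8.40 in T1 to T3 and 8.59, 8.99 and 8.87 in W1 to W3. There T1 was above W1, the groups overlapped, and the difference of -0.33 ± 0.15 (SE) had a limma adjusted p = 0.253 and a 95% interval from -0.68 to 0.012.

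Prox1 is also known from retinal horizontal cells and lymphatic endothelium, so markers of these tissues were read beside it. Of 17 neural retina markers Elavl4 and Gngt1 fell, 2 calls (2.56% of all genes were called lower) that went to 0 without W2 and to 1 without T1, T2, T3 or W1. In all, 16 of the 17 were lower on average, where 47.7% of all genes were, and the list median was -0.33. Their summed log2 values were 114.8 to 124.4 in transgenic and 120.0 to 128.3 in wild-type lenses. The per-array retina score, the median deviation of the markers from their own means, was -0.47, 0.15 and -0.25 in T1 to T3 and 0.35, 0.28 and -0.15 in W1 to W3. Of 5 horizontal cell markers 0 passed and 1 had a mean above the median of all probe sets. The means of Lhx1 and Onecut1 were 3.86 and 4.17 in transgenic and 3.83 and 4.30 in wild-type lenses, near the lower quartile of all values, 4.18. The summed values of the 5 were 22.1 to 23.2 and 22.4 to 23.6, with 0 at an unadjusted p under 0.05. Of 4 lymphatic markers 0 passed in limma, and 1 passed, higher in transgenic lenses, with array weights or with dim probe sets left out. The 2 with an unadjusted p under 0.05 were higher in transgenic lenses, and the other 2 were lower on average. The summed values of the 4 were 30.7 to 31.3 in transgenic and 29.8 to 31.1 in wild-type lenses. The part of retinal RNA in the Prox1 difference was not tested.

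RefSeq (GRCm38.p6) gives 2 start sites for Prox1. The stretch 5′ of each was searched because the called probe sets of Prox1 and Maf fell by like amounts. The other probe sets of both genes differed by less. In windows from 250 bases before to 50 bases after each start, neither held the core of the Maf recognition element, TGCTGA, on either strand, which 19.5% of the 32851 windows of the table hold, and no match says only that these letters are not in this window. The downstream start held 1 Sox-type match (ACAATG or ACAAAG, either strand, present in 28.6% of windows), shown in capitals at chr1:190169666-190169707 on the minus strand, 174 bases before the start.
Prox1: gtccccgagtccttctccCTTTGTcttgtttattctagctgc
A match of this kind is a description of letters and not a binding site.

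Maf, the large Maf factor that drives crystallin genes, gave a split result. Of its 6 probe sets 3 fell and 3 did not pass. On 1447849_s_at Maf stood at 10.88, 10.66 and 10.56 in T1 to T3 and at 11.48, 11.74 and 11.83 in W1 to W3. The highest transgenic array was thus below the lowest wild-type array. The difference was -0.98 ± 0.12 (SE), a 1.98-fold fall (n = 3 each; limma adjusted p = 0.00565), and it held with any 1 array left out.

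The probe set 1435828_at read 9.94, 9.65 and 9.59 in T1 to T3 and 10.49, 10.92 and 11.01 in W1 to W3. Again the groups did not overlap, and W1 was the lowest wild-type array. The fall was 2.11-fold, with a log2 difference of -1.07 ± 0.15 (SE; limma adjusted p = 0.0100), which just missed the threshold without T2 (0.0515) and without W2 (0.0559). On 1447945_at the arrays stood at 7.70, 7.72 and 7.81 in T1 to T3 and at 8.41, 8.85 and 8.96 in W1 to W3, with no overlap. The difference was -0.99 ± 0.14 (SE; limma adjusted p = 0.00947), and without W2 it was -0.94 with an adjusted p = 0.0531.

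The remaining Maf probe sets showed much smaller differences. On 1456060_at, which had the highest mean signal of the 6, Maf stood at 11.88, 11.52 and 11.36 in T1 to T3 and at 11.66, 11.65 and 11.64 in W1 to W3. The wild-type arrays lay within the transgenic range, and the difference was -0.062 ± 0.13 (SE; limma adjusted p = 0.828), with a 95% interval from -0.36 to 0.24 that leaves out a fall of the size seen on the other probe sets. On 1437473_at the values were 10.18, 10.15 and 9.94 against 10.06, 10.40 and 10.53, a difference of -0.24 ± 0.13 (SE; limma adjusted p = 0.346). On 1444073_at they were 6.62, 6.63 and 6.39 against 6.14, 6.67 and 7.06, a difference of -0.077 ± 0.21 (SE) over widely spread wild-type arrays. Its sign turned when W3 was left out (0.14). The ending _s_at of 1447849_s_at marks a probe set whose probes can match more than 1 transcript, and the positions of the 6 probe sets along the Maf transcript were not used here.

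**Figure D2:**
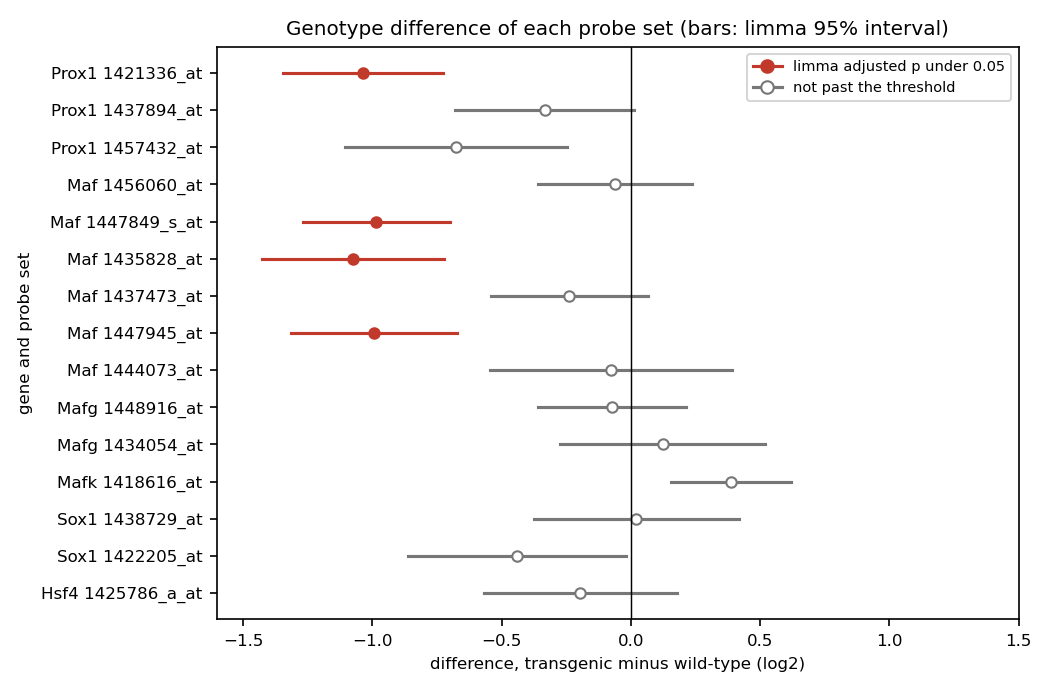
Difference of each probe set, transgenic minus wild-type on the log2 scale, with limma's 95% interval; filled red points are past the threshold and open grey points are not. The 4 filled points lie between -1.07 and -0.98, and the interval of Maf 1456060_at runs from -0.36 to 0.24.

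Whether probe sets of 1 gene changed unequally was asked from the difference between 2 probe sets within each array. Each gene's probe set with the highest mean served as the reference, which gave 9 pairs for the 4 genes with several probe sets. For Maf, 1435828_at minus 1456060_at was -1.94, -1.87 and -1.77 in T1 to T3 and -1.18, -0.73 and -0.63 in W1 to W3. The gap thus shifted by -1.01 between the genotypes with no overlap. The shifts against the same reference were -0.92 for 1447849_s_at and -0.93 for 1447945_at, also without overlap, and -0.18 for 1437473_at and -0.015 for 1444073_at, with overlap. For Prox1, 1437894_at and 1457432_at shifted by 0.70 and 0.36 against 1421336_at, with no overlap in either pair. An exact two-sided permutation test over the arrays gave p = 0.10 for each of these 5 pairs without overlap (0.18 after Benjamini-Hochberg adjustment over the 9 pairs), and 0.10 is the smallest p that 3 arrays against 3 can give.

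A limma fit over all 16752 within-gene pairs of the array, chosen after seeing the data, called 3.17% of pairs unequal, and 28.3% of pairs had groups that did not overlap. Pairs of 1 gene share a reference, 1456060_at for Maf and 1421336_at for Prox1, so they are not independent. The limma fit called 4 of the 9 pairs here. These were the 3 Maf pairs above, with adjusted p-values of 0.0135 for 1447849_s_at, 0.0159 for 1435828_at and 0.0375 for 1447945_at, and the Prox1 pair with 1437894_at (0.0244). The Sox1 pair shifted by -0.46 (adjusted p = 0.167) and the Mafg pair by 0.20 (adjusted p = 0.424).

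**Figure D3:**
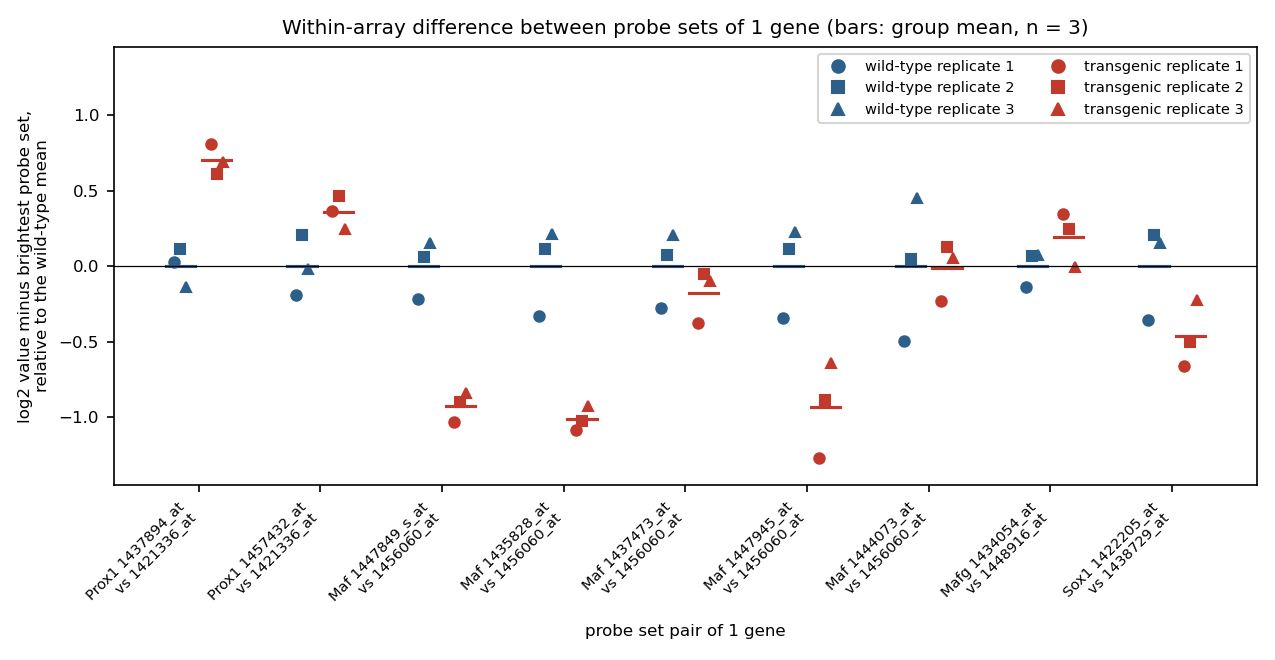
Log2 value of a probe set minus the highest-signal probe set of the same gene on the same array, set relative to the wild-type mean, for 9 pairs on the x axis; red is transgenic, blue is wild-type, shapes mark replicates and bars are group means (n = 3). In 3 Maf pairs the transgenic arrays lie 0.92 to 1.01 below the wild-type mean on average, and in the other Maf pairs the groups overlap.

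Maf binds crystallin promoters. The Maf core TGCTGA was found in 9 of the 13 measured crystallin genes with a RefSeq window, against 21.7% of all genes in that table. Other motifs were also frequent in these 13 genes. The Sox-type match was found in 9 of them (31.7% of all genes) and the antioxidant response core TGACNNNGC in 7 (14% of all genes). Crygf, the crystallin gene that was called, held no Maf core in its window. The windows of Cryaa, Crybb1 and Cryba1 are shown with that core in capitals, as abundant fiber transcripts that did not pass while Maf fell on 3 probe sets. They lie at chr17:31677805-31677846 (plus strand), chr5:112255718-112255759 (plus strand) and chr11:77725327-77725368 (minus strand) of GRCm38.p6, with the core 108, 84 and 57 bases before the start.
Cryaa: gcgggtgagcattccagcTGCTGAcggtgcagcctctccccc
Crybb1: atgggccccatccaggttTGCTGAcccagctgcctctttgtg
Cryba1: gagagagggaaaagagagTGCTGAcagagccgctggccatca
The antioxidant response core TGACNNNGC overlaps the Maf core in each of these 3 windows. Cryaa differed by 0.034 and Cryba1 by 0.052. Crybb1 stood at 14.59 on all 6 arrays, because quantile normalization gives the same value to the same rank and these transcripts hold the top ranks. A difference in the most abundant crystallins could therefore not show on this scale. Of 14 measured crystallin genes Crygf fell by 0.73 (limma adjusted p = 0.00890) and the other 13 had no call. The count was also 1, lower, on the values as deposited and with 1 common median, where quantile normalization was not applied here. The steps behind the deposited values are not stated. The list median was -0.023, where 2.56% of all genes were called lower.

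The small Maf genes did not pass. Mafk, on its single probe set 1418616_at, stood at 8.05, 7.93 and 7.99 in T1 to T3 and at 7.59, 7.76 and 7.45 in W1 to W3. Every transgenic array was above every wild-type array, and the difference of 0.39 ± 0.10 (SE), 1.31-fold, had a limma adjusted p = 0.0784. Its 95% interval ran from 0.15 to 0.62, and the adjusted p stayed between 0.0606 and 0.194 over all alternatives. Mafg on 1448916_at read 8.56, 8.70 and 8.66 against 8.44, 8.78 and 8.91, a difference of -0.073 ± 0.13 (SE). On 1434054_at it read 8.70, 8.74 and 8.45 against 8.10, 8.64 and 8.78, a difference of 0.12 ± 0.17 (SE). The groups overlapped on both, the limma adjusted p-values were 0.784 and 0.730, and the sign of each turned when 1 wild-type array was left out (0.026 without W3 for the first, -0.079 without W1 for the second).

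The Mafk window holds a Maf core on the opposite strand, and the Mafg window a pair of heat shock units, and both are shown because small Maf and heat shock factors are among the members. They lie at chr5:139791292-139791333 (plus strand), 226 bases before the Mafk start, and at chr11:120633578-120633621 (minus strand), 56 bases before the Mafg start.
Mafk: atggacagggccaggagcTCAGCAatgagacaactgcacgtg
Mafg: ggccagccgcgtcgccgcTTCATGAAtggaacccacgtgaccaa
The heat shock pair was searched as GAANNTTC or TTCNNGAA on both strands, forms that can overlap each other and that 15.1% of windows hold.

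Of 9 measured relatives and partners of the Maf proteins 0 passed in limma, and 3 had an unadjusted p under 0.05. The CNC factor gene Nfe2l1 differed by 0.32, the Bach factor gene Bach2 by 0.39 and the CNC factor gene Nfe2l3 by 0.45, with adjusted p-values of 0.122 to 0.221. Nfe2l2, which encodes the oxidative stress factor that pairs with small Maf proteins, differed by 0.13. Of 24 antioxidant response genes, a target class of these pairs, the heme oxygenase gene Hmox1 fell by 2.24, and the autophagy receptor gene Sqstm1 rose by 0.50 (limma adjusted p = 0.0292). The other 22 had no call, where 4.41% of all genes were called. The list median was -0.096, against 0.011 over all genes represented by 1 probe set. No gene of this list was called higher when any 1 array was left out, so the Sqstm1 call rests on every array.

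Sox1, the SoxB1 factor of gamma crystallin expression, gave unlike values on its probe sets. On 1438729_at it stood at 9.91, 9.40 and 9.15 in T1 to T3 and at 9.39, 9.45 and 9.55 in W1 to W3. The wild-type arrays lay inside the transgenic range, and the difference was 0.021 ± 0.17 (SE; limma adjusted p = 0.963). Its sign turned to -0.056 on the values as deposited. On 1422205_at the arrays read 7.16, 6.81 and 6.84 in T1 to T3 and 6.94, 7.57 and 7.62 in W1 to W3. T1 lay above W1, and the difference of -0.44 ± 0.18 (SE) had a limma adjusted p = 0.220. Without W1 it was -0.66, with an adjusted p = 0.0447, the 1 setting in which a Sox1 probe set passed. The Mafg and Mafk windows each hold 1 antioxidant response core, TGACNNNGC, at -222 and -13 from the start, and 12.4% of windows hold it. The Sox1 window also holds 1, at chr8:12395384-12395428 on the plus strand, 117 bases before the start.
Sox1: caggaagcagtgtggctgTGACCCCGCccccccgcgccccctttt
Of 7 measured genes of the Sox B and C families 0 passed in limma, and 4 had an unadjusted p under 0.05. Sox2, a partner of Pax6 in early lens, differed by -0.54, Sox12 by 0.29 and Sox21 by 0.33, with adjusted p-values of 0.0913 to 0.134.

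Hsf4, the lens heat shock factor, has a single probe set, 1425786_a_at. It stood at 9.72, 9.60 and 9.43 in T1 to T3 and at 9.40, 10.00 and 9.94 in W1 to W3. W1 was below every transgenic array, while W2 and W3 were above them. The difference was -0.20 ± 0.16 (SE; limma adjusted p = 0.535), with a 95% interval from -0.57 to 0.18. Without W1 it was -0.39 (adjusted p = 0.114), and without W2 it was -0.085.

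Some genes known to depend on heat shock factors fell, and Hsf4 itself was not called. Dnase2b, whose nuclease clears fiber nuclei and which depends on Hsf4 in the lens, fell by 2.22, and Hspb1, a small heat shock protein gene, fell by 1.86 on 1 probe set and fell by 2.55 on another (limma adjusted p from 0.00128 to 0.0147). Of 21 measured heat shock genes 8 fell, 0 rose and 13 did not pass, with a median of -0.37, where 2.56% of all genes were called lower and the median of all genes was 0.011. The mitochondrial chaperonin gene Hspe1 fell by 0.54 and the Hsp90 co-chaperone gene Ahsa1 by 0.85. The others were Chordc1, Hsph1, Hspa4l, Hsp90aa1 and Dnaja1, with differences of -0.64 to -0.38. Among the 13 not called 5 were higher on average, and Hspb8, a small heat shock protein gene, differed by 0.53 without overlap (limma adjusted p = 0.108). The count was 5 without T1, 4 without T2, W2 or W3, and 6 without T3 or W1.

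A heat shock unit pair was present in the window of 11 of 18 heat shock genes with one, against 17% of all genes in the table. Of the 7 called heat shock genes with a window 5 hold the pair, and genes not called hold it too, among them Hspb8, Bag3 and Hspd1. Dnase2b is not among the 18 and was counted with the fiber genes, of which 3 of 15 with a window hold the pair (20%). The windows of Hspb1, Hspe1 and Dnase2b are shown as genes that fell, with every match in capitals. They lie at chr5:135887784-135887847 (plus strand), chr1:55088041-55088094 (plus strand) and chr3:146615803-146615846 (minus strand).
Hspb1: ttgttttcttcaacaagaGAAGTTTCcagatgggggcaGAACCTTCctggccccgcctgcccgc
Hspe1: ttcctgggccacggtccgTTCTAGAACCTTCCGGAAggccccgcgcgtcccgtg
Dnase2b: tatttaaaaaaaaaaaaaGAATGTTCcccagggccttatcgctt
Hspe1 holds 3 overlapping pairs, Hspb1 2 separate ones and Dnase2b 1.

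Across the 15 probe sets, W1 was the lowest wild-type array in 13, where it was lowest in 43.7% of the 22479 probe sets with a mean at or above the median. T1 was the highest transgenic array in 11 of the 15, against 38.1% of those probe sets. The member probe sets therefore shared much of an order of arrays within genotypes. Maf has 6 and Prox1 3 of the 15, and probe sets of 1 gene are not independent, so these are not counts of genes. The part of the higher upper quartile of W1 in this order was not tested.

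Of 26 other lens transcription factors measured, Foxe3 rose, the chromatin protein gene Hmgn3 fell by 0.64 (limma adjusted p = 0.0160), and 24 had no call, where 4.41% of all genes were called. Pax6, the early regulator of the lens, differed by -0.22 on its probe set with the highest signal. All 5 probe sets of Pax6 were below 0, from -0.37 to -0.076, with limma adjusted p-values of 0.120 or more. The Hmgn3 call was lost without T2, W2 or W3, and 4 genes of the list passed without T1. Of 4 measured genes of the Hsf family and its regulator Hsbp1, 0 passed in limma and 0 had an unadjusted p under 0.05. Only Hsbp1 had a mean above the median of all probe sets. Hsf2, Hsf5 and Hsfy2 had means of 4.56, 3.92 and 4.18 over all arrays, near the lower quartile of all values, 4.18. Hsf1 and Hsf3 were not among the measured genes, so these values do not cover them.

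Most calls among genes of fiber structure and maturation were lower in transgenic lenses. Of 21 measured genes of fiber membrane, filament, denucleation and cell cycle exit, 8 fell and 2 rose, with 11 not past the test, where 2.56% of all genes were called lower and 1.85% higher. The list median was -0.16, and its members were chosen with earlier results of these samples known. Besides Bfsp1 and Birc7, the latter of the inhibitor of apoptosis family, and Dnase2b, Tdrd7, a component of RNA granules, fell by 1.23, and Plaat3, a phospholipase gene, fell by 0.88. Caprin2 fell by 0.79, Clic5 fell by 0.74 and Alox15 fell by 0.70. Cdkn1c, the p57 cell cycle inhibitor gene that is reduced in lenses without Prox1, rose: it stood at 12.27, 12.24 and 12.20 in T1 to T3 and at 11.87, 11.82 and 11.86 in W1 to W3, a difference of 0.39 ± 0.080 (SE; limma adjusted p = 0.0363). The FGF receptor gene Fgfr2 rose by 0.61 (limma adjusted p = 0.0343) and is also on the lens epithelium list. No gene of this list was called higher when any 1 array was left out. The cell cycle inhibitor gene Cdkn1b differed by 0.29, with overlapping groups. The list's count of calls was 7 without T1 or T3, 8 without W1 and 5 without T2, W2 or W3, all of them lower.

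**Figure D4:**
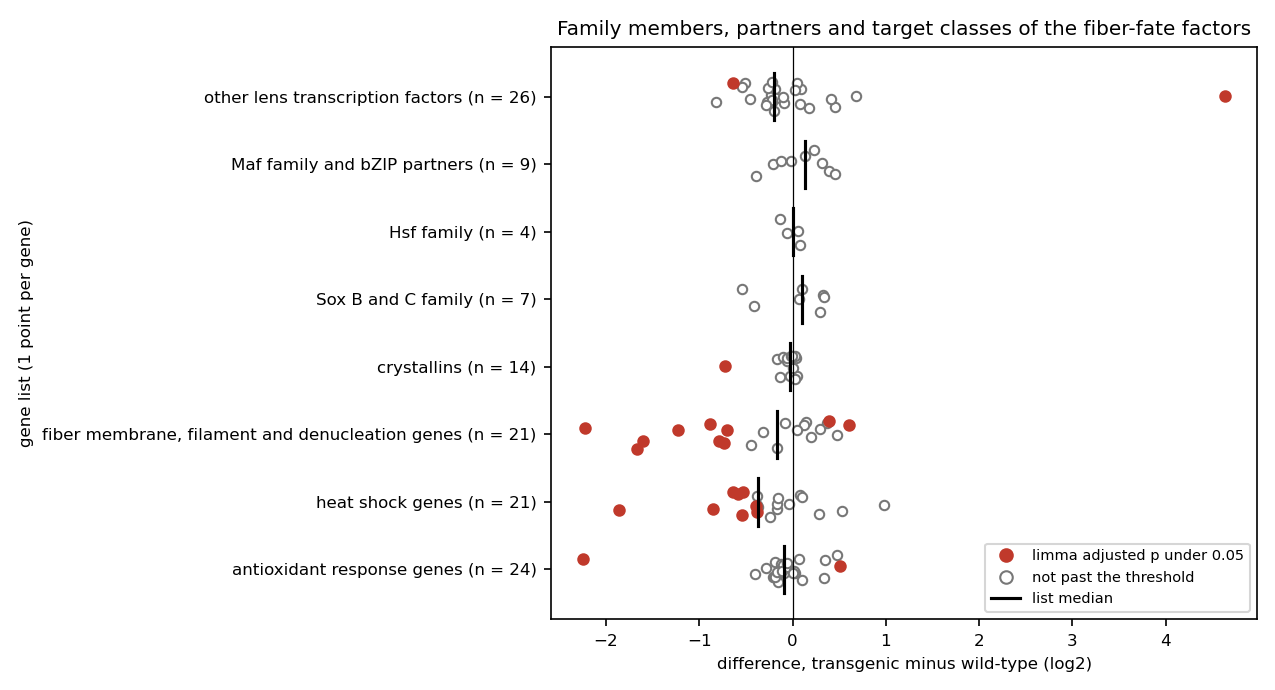
Difference of each gene, transgenic minus wild-type on the log2 scale, in 8 lists of family members, partners and target classes; each point is a gene by its highest-signal probe set, filled red if past the threshold, and black bars mark list medians. Heat shock genes have a median of -0.37 with 8 filled points, and the Maf partners, the Hsf family and the Sox families have none. The Hsf list holds 4 measured genes, 1 of them with a mean above the median of all probe sets.

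The probe sets whose pattern over the 6 arrays lay nearest to Prox1 1421336_at were sought among 20124 probe sets with 1 gene symbol and a mean at or above the median. Nearness was the root mean square distance after each probe set's wild-type mean was subtracted. The nearest was Maf 1435828_at, at a distance of 0.053 log2 units, and Maf 1447849_s_at was the third, at 0.059. Between them was Chrng, a subunit gene of the fetal acetylcholine receptor, and after them came the phosphate transporter gene Slc20a2 and the calcium-dependent protease gene Capn3. For Maf 1435828_at the nearest were Slc20a2 (0.040) and Prox1 1421336_at (0.053), followed by the carotenoid-cleaving enzyme gene Bco2, Cyyr1 and Chrng. Apart from the members, these genes differed between genotypes by -1.10 to -0.99, close to the references. The distance requires such closeness, of the members too. Each reference was chosen as its gene's probe set with the largest absolute difference, so the nearness of Prox1 and Maf follows in part from that choice. Other probe sets of both genes differed by less, such as Maf 1456060_at by -0.062 and Prox1 1437894_at by -0.33. Pearson's r with the reference ran from 0.989 to 0.998 over 6 arrays that share the same genotype split, and is given as a description.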

How the data were processed

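The deposited table holds 1 log2 value per probe set and array, with the scale read from its range. The steps by which the authors made these values are not stated in the labels. The 64 control probe sets were set aside. Upper quartiles differed by 0.120 between arrays, above a limit of 0.1, so arrays were quantile normalized (limma 3.58.1, R 4.3.3). Gene names came from the platform table and were brought up to date with RefSeq, where 99.4% of the 34945 probe sets with 1 symbol matched, while 932 had several symbols and 9160 none.

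Genotypes were compared with limma's lmFit and eBayes on 45037 probe sets, with Benjamini-Hochberg adjustment and a threshold of 0.05 (prior degrees of freedom 4.49, moderated SEs). The fit was tested on simulated data. A gene in a list was counted by its probe set with the highest mean in that fit (18193 genes), with no set test. The number of arrays limits the precision. Named genes were all member probe sets, Foxe3, Pax6, Sox2, Cdkn1b, Cdkn1c, Dnase2b and Hspb1, up to 8 called genes of each list or else up to 3 with the smallest p, and the 5 nearest patterns for Prox1 and Maf. Fgfr2, Dkk3, Nfe2l2, Mip, Hspb8, Hsbp1, the retinal markers and the crystallins shown fall outside this rule and were picked after their values were seen. Members and lists were chosen with earlier results of these data known. Alternatives were other scalings, a filter on dim probe sets, 1 probe set per gene, other variance models, array weights, a replicate block and each array left out. Promoter windows (RefSeq, GRCm38.p6) were matched for Prox1, Mafg, Mafk and Sox1, 4 of the 6 genes.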

Additional observations from a re-analysis of the deposited data

How the results depend on the processing

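Over all probe sets 1656 were called, 661 higher and 995 lower. The count was 827 with 1 probe set per gene, 69 in the ordinary test, 2567 with array weights, 713 with the replicate block and 433 to 1251 with 1 array left out. With all arrays set to 1 common median 470 were higher and 1297 lower, so the share called higher went from 39.9% to 26.6%. Of the 15 member probe sets 4 were called. The count was 1 with 1 probe set per gene, where only 6 of them were tested, 0 in the ordinary test, 4 with the replicate block and 2 to 6 with 1 array left out. Replicate numbers did not pair the arrays (correlations of deviations 0.00035, 0.12 and 0.030), so the replicate block is given here only. With it 4 heat shock genes were called in place of 8, and no antioxidant gene was called higher. Of 201 single member values under alternatives 180 kept their direction and side of the threshold, 7 lost and 5 gained a call, and 9 turned sign. The sign changes were all in probe sets that were not called. Sox1 1438729_at went to -0.056 on the values as deposited, -0.092 with a common median, and -0.017 without W1, and ran from -0.19 to 0.19 with single arrays left out. Maf 1456060_at went to 0.051 without T3 (range -0.21 to 0.051). Maf 1444073_at went to 4.39e-05 without T3 and 0.14 without W3 (range -0.32 to 0.14). Mafg 1434054_at went to -0.079 without W1 (range -0.079 to 0.26), and 1448916_at to 0.026 without W3 (range -0.21 to 0.026). The cause was not tested. The 5 pairs without overlap became 5 to 7 with 1 array left out and 5 on the values as deposited.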
